A study of Mus musculus with 6 samples.

Results

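RNA polymerases I, II and III and the factors that place them on promoters were followed in thymocytes given a negative-selecting, a positive-selecting or a non-selecting peptide. Members were taken by symbol: every gene of the array whose symbol begins with Polr1, Polr2 or Polr3, with Gtf or Taf and a digit, or with Brf, together with Tbp, Ubtf and Rrn3. The rule found 65 genes, read by 102 probes, among 16593 genes with a named probe. Of these, 53 had a probe above background on at least 2 of the 6 arrays and were tested, among 8253 genes tested in all. The other 12 (Polr2c, Polr2m, Polr3f, Taf1b, Taf4, Taf7, Taf7l, Taf8, Taf6l, Gtf2a1l, Gtf2b and Gtf2i) did not pass that filter and no statement is made about them. Rrn3, Polr1b, Polr2a, Polr2b and Polr3gl have no named probe in the annotation used and were not analysed here. The same holds for Polr2l, a further subunit common to the polymerases.

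RNA polymerase I makes the large ribosomal RNA precursor in the nucleolus, polymerase II makes messenger RNA, and polymerase III makes transfer RNA, 5S ribosomal RNA and other short RNAs. Each enzyme has subunits of its own. Some subunits are common to all of them, and others are common to polymerases I and III. Promoter binding is done by separate factors: SL1 and UBTF for polymerase I, TFIID, TFIIA, TFIIB, TFIIE, TFIIF and TFIIH for polymerase II, and TFIIIA, TFIIIB and TFIIIC for polymerase III. The TATA-binding protein TBP works with all of the enzymes. A lymphocyte that is activated to grow is known to raise ribosome production, which draws on polymerases I and III in particular.

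All cells were labelled as pre-selected thymocytes at the CD4 CD8 double-positive (DP) stage from AND.Rag1-/-H-2d mice, so every group shares the Rag1 deficiency, the AND T cell receptor and the H-2d background. Stimulation lasted 7 h, by plate-bound I-Ek Ig dimers loaded with MCC (labelled as giving negative selection signals), gp250 (positive selection signals) or Hb (non-selecting). Each ligand had 2 arrays of 1 colour. The sources used here do not give the age or number of the mice, and they do not say that the arrays of a ligand came from separate cultures, so p-values measure the spread between these arrays, which may be technical.

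Mean deposited intensity was 582 to 613 on the MCC arrays, 445 to 482 on the gp250 arrays and 470 to 488 on the Hb arrays, and 10519 to 11603 of 25697 probes were detected. Replicate arrays correlated at r = 0.994 within each ligand. The Rag1 probe gave log2 signals of 9.35 and 9.54 with MCC, 13.12 and 13.27 with gp250 and 13.04 and 13.18 with Hb. No source here places this probe relative to the deletion, and it does not check the genotype. Of 9 DP marker genes 8 were tested, and 7 of those 8 were lower with MCC than with Hb. Normalized signals were summed over all 9 genes of the DP list, so the sums include Cd3e, at a log2 signal of 13.78 with MCC. They ran from 22826 to 24423 on the MCC arrays, and were 79805 and 81827 on the gp250 arrays and 75378 and 77920 on the Hb arrays. Cd8a was not detected on any array, Cd4, Rag2 and Ptcra were not detected with MCC, and the T cell gene Cd3e differed by 0.22 on the log2 scale between MCC and Hb and was not called. Among markers of other cells, both tested B cell genes, Cd79a and Cd79b, were lower with MCC than with Hb, with sums over the B cell list of 260 to 262 (MCC), 1192 to 1246 (gp250) and 1193 to 1222 (Hb). No myeloid marker was tested. The 1 tested erythroid gene, Hba-a1, was lower, with list sums of 2336 to 2416 (MCC), 3268 to 4286 (gp250) and 3115 to 3805 (Hb). Of 2 tested stromal genes Krt8 was higher and Pecam1 lower, with list sums of 527 to 528 (MCC), 1319 to 1462 (gp250) and 1332 to 1387 (Hb). Of 2 tested genes of NK and innate cells Nkg7 was higher and Prf1 lower, with list sums of 2351 to 2536 (MCC), 4149 to 4614 (gp250) and 3824 to 4021 (Hb). The part of these shifts in the results was not tested. In a population, fewer cells of a type and less RNA per cell cannot be told apart.

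With MCC against Hb, the polymerase genes did not move as one block. All 4 tested subunits common to the polymerases rose, as did 3 of 4 tested subunits of polymerase I (or of I and III). So did 3 of 6 of polymerase III, and none of the polymerase II subunits tested was called higher. By limma's moderated test with Benjamini-Hochberg adjustment over all probes, 21 of 53 members rose (39.6%), where 26.2% of all genes tested rose, and 6 fell (11.3%), where 28.8% of all genes tested fell. The other 26 were not called. Calls in either direction numbered 27 of 53 members and 55.1% of all genes tested. Their median log2 difference was 0.21, against -0.04 for all genes tested. At least 2-fold rises were seen for 6 members, with 8.65% of all genes tested, and at least 2-fold falls for 2 members, with 8.99% of all genes tested. The MCC and Hb arrays did not overlap for 46 of 53 members, where the share over all genes tested was 78.4%. Without scaling between the arrays the median of all genes moved to 0.21, and 33 members rose and 3 fell. The share of rises among all called genes was then 69.3%, in place of 47.6%. The plot of signal by array shows each member in every sample.

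**Figure D1:**
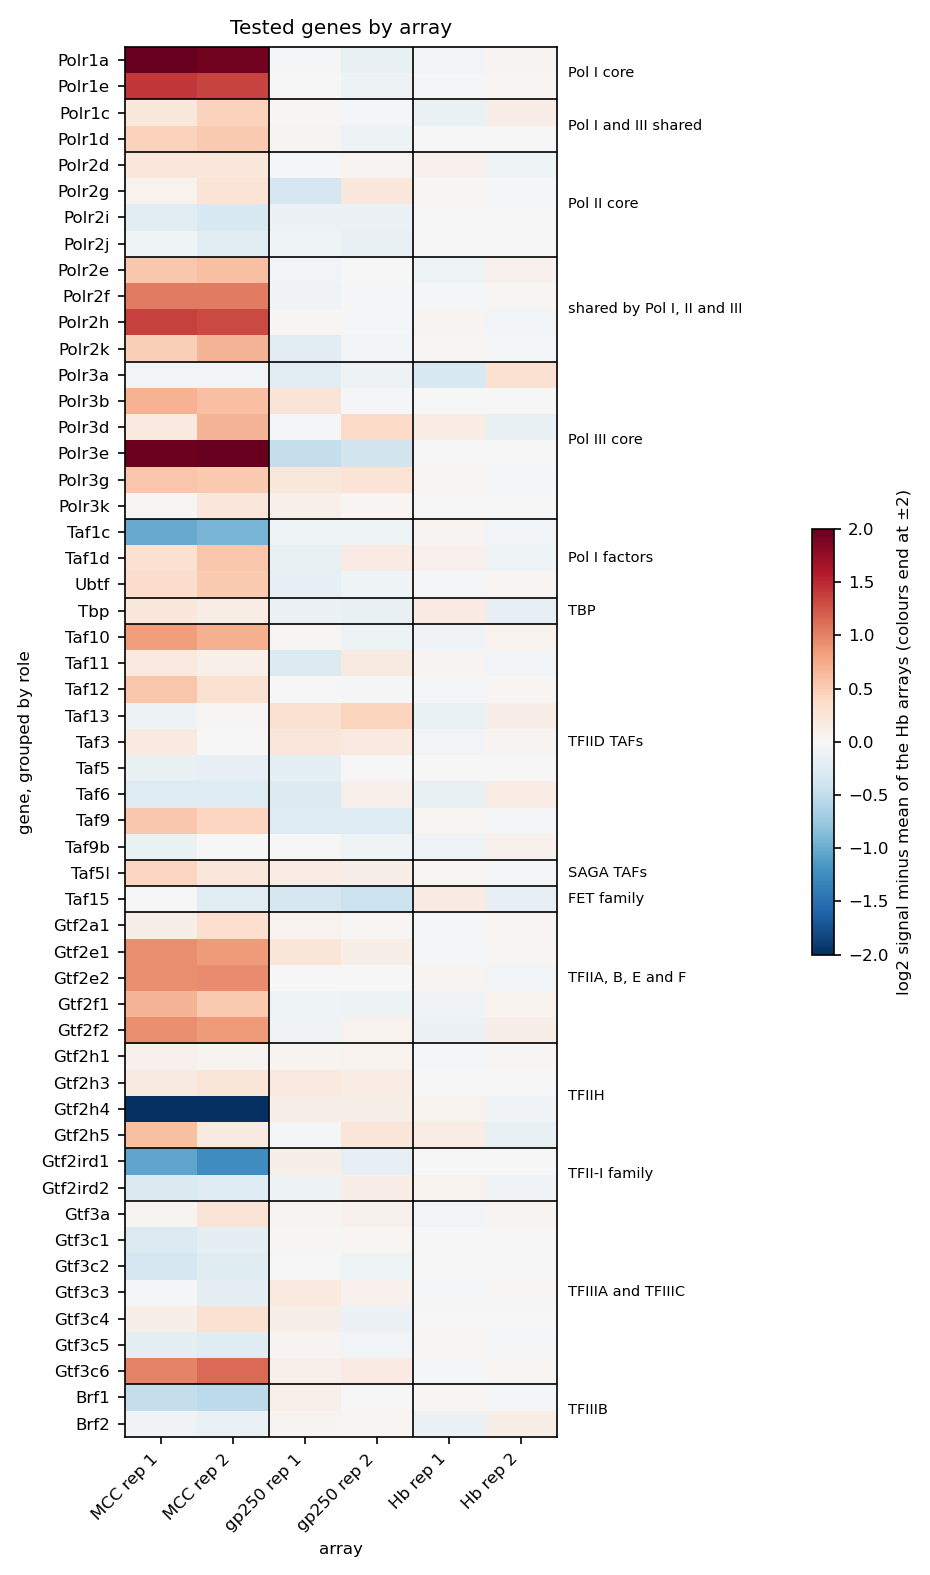
Normalized log2 signal of each tested member on each of the 6 arrays, set relative to that gene's mean on the 2 Hb arrays, with members grouped by role (rows) and arrays by ligand, MCC, gp250 and Hb (columns). The MCC columns differ from the other ligands in both directions, with Polr1a, Polr1e, Polr2h and Polr3e high and Gtf2h4 low.

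Polr1a and Polr1e, the members that belong to polymerase I alone, rose with MCC. Polr1a, the catalytic subunit, had log2 signals of 10.48 and 10.41 with MCC, 8.45 and 8.33 with gp250 and 8.42 and 8.54 with Hb. Both MCC arrays stood clear of the other 4, which overlapped one another. The difference between MCC and Hb was 1.96 ± 0.10 (SE), a 3.90-fold rise with an adjusted p of 1.67e-05 by limma. All 3 tested Polr1a probes rose, by 1.31 to 1.96. Polr1e, which forms a dimer docked on the enzyme and takes part in initiation, had 10.14 and 10.07 with MCC, 8.71 and 8.63 with gp250 and 8.69 and 8.76 with Hb. It rose by 1.38 ± 0.09 over Hb (adjusted p of 5.54e-05), and again the MCC arrays did not overlap the others. Its partner in that dimer, listed on this platform as Cd3eap and so outside the symbol rule, rose 2.82-fold, with an adjusted p of 0.000227.

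Polr1c and Polr1d form the assembly platform that polymerases I and III share. Polr1d had 12.37 and 12.44 with MCC, 11.96 and 11.81 with gp250 and 11.90 and 11.93 with Hb, a rise of 0.49 ± 0.10 over Hb. Polr1c had 9.41 and 9.66 with MCC, 9.23 and 9.15 with gp250 and 9.07 and 9.33 with Hb, and its difference of 0.34 ± 0.13 was not called (adjusted p of 0.0719). Of 4 polymerase I and I/III subunits, 3 thus rose and none fell, with a median of 0.94. The other polymerase I subunits on the array under older names, Znrd1 and Twistnb, differed by 0.05 and 0.19 and were not called.

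All 4 tested subunits common to the polymerases rose, and Polr2l was not analysed here. Polr2h, a small subunit found in every one of the enzymes, had log2 signals of 11.27 and 11.23 with MCC, 9.94 and 9.87 with gp250 and 9.96 and 9.86 with Hb. That was a 2.54-fold rise over Hb (1.34 ± 0.09, adjusted p of 6.21e-05). Polr2f, another common subunit, had 10.65 and 10.66 with MCC, 9.55 and 9.58 with gp250 and 9.59 and 9.65 with Hb, a 2.05-fold rise. For both genes the gap between MCC and the other arrays was many times the spread between replicates. Polr2k, a zinc-binding subunit, rose by 0.58 and Polr2e by 0.56, with adjusted p of 0.00571 and 0.00372. The median of the common subunits was 0.80.

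None of the 4 tested polymerase II subunits rose, although 1 did with scaling to a common median and without scaling between arrays. Polr2d and Polr2g make up the stalk of the enzyme and take part in initiation. Polr2d had 10.49 and 10.49 with MCC, 10.26 and 10.34 with gp250 and 10.36 and 10.20 with Hb, and its difference of 0.21 against Hb had an interval of -0.03 to 0.45. Polr2g differed by 0.17, with an interval of -0.28 to 0.62. Polr2j differed by -0.15, with an interval of -0.38 to 0.08. Polr2i, a subunit that aids start-site choice and proofreading, had 9.59 and 9.51 with MCC, 9.69 and 9.69 with gp250 and 9.80 and 9.82 with Hb. It fell by 0.26 on the log2 scale against Hb, with an adjusted p of 0.0416. This call was lost when any 1 of the 6 arrays was left out: the difference was -0.29 without MCC replicate 1, -0.22 without MCC replicate 2, -0.26 without either gp250 array, -0.27 without Hb replicate 1 and -0.26 without Hb replicate 2. Its sign turned without scaling between arrays (0.034). The median of these subunits was 0.01 (0.33 without scaling, when that of all genes was 0.21), and the whole interval of each lay within a 2-fold change. The catalytic subunit genes Polr2a and Polr2b were not analysed here.

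Polymerase III had a single subunit that moved as far as Polr1a and several that moved little. Polr3e, a peripheral subunit, had 8.12 and 8.19 with MCC, 5.69 and 5.79 with gp250 and 6.18 and 6.15 with Hb. It rose 3.99-fold over Hb (1.99 ± 0.09, adjusted p of 1.24e-05 by limma). This was by 1 of its 2 probes, since the other did not pass the filter. The tested probe was above background on 1 of the 2 gp250 arrays. The lowest detected log2 signals were 5.69 and 5.57 on the gp250 arrays and 5.71 and 5.70 on the Hb arrays. Its reference values were thus dim, unlike those of Polr1a. Polr3b, which forms part of the catalytic cleft, rose by 0.64 ± 0.12, with 9.63 and 9.55 with MCC, 9.20 and 8.92 with gp250 and 8.93 and 8.96 with Hb. Polr3g belongs to the subcomplex that opens the promoter. It had 7.08 and 7.05 with MCC, 6.75 and 6.80 with gp250 and 6.56 and 6.49 with Hb, a rise of 0.54 ± 0.09. Its gp250 values lay between those of the other ligands without overlap. The remaining subunits were not called. Polr3a, the catalytic subunit, differed by -0.06 with an interval of -0.53 to 0.42, and Hb replicate 2 alone, at 6.53, was above both MCC arrays. Polr3k, which takes part in RNA cleavage and termination, differed by 0.13. Polr3d, the partner of Polr3e, was below background on both Hb arrays and on 1 array of each other ligand. Of 6 tested polymerase III subunits 3 rose and none fell, with a median of 0.49. With detection required on all 6 arrays 2 of 4 rose, since Polr3e was then not tested. The medians ran from polymerase I and the common subunits to polymerase III and then polymerase II in the same order under all 18 alternative settings, and no test compared the classes. That order holds for the members chosen by symbol only. With Cd3eap, Twistnb and Znrd1 counted in, after their values had been seen, 4 of 7 polymerase I subunits rose and the median was 0.49, and with Crcp, a polymerase III subunit that rose by 0.54, the polymerase III median was 0.54.

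**Figure D2:**
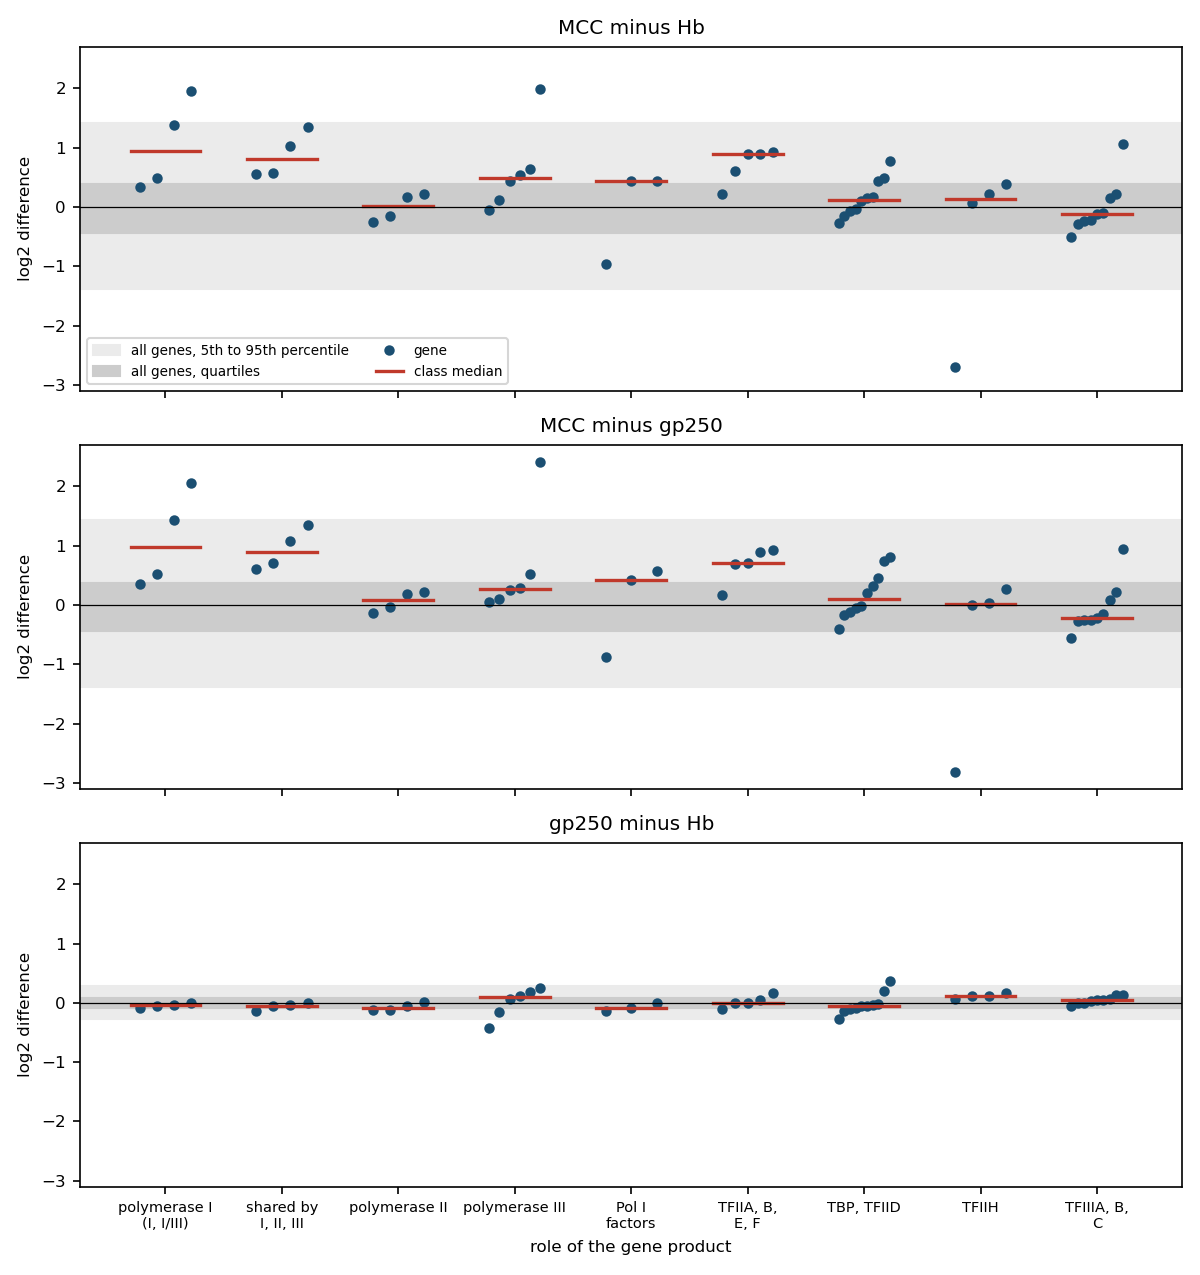
Log2 difference of tested genes (points) by role, with the class median as a red line, for MCC minus Hb, MCC minus gp250 and gp250 minus Hb. Grey bands span the quartiles and the 5th to 95th percentiles of all genes tested. Only members chosen by symbol are shown. In MCC against Hb the medians were 0.94 for polymerase I and I/III subunits, 0.80 for common subunits, 0.49 for polymerase III and 0.01 for polymerase II.

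The promoters shown are those of the subunits that rose most, picked by the size of the rise. The letters CACGTG, the E-box bound by MYC and related factors, can be looked for in them. Each window runs from 250 bases before to 50 bases after the RefSeq start in GRCm38.p6, on the gene's strand. Capitals mark CACGTG, a palindrome read on both strands at once, and in the Polr3e window also a second stretch, described after the E-box counts.
Polr1a: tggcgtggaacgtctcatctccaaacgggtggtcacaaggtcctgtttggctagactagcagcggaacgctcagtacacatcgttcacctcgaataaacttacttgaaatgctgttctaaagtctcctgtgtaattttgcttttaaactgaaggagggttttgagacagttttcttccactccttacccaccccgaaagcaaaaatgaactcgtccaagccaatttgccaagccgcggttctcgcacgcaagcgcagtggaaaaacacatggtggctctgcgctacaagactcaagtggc
Polr1e: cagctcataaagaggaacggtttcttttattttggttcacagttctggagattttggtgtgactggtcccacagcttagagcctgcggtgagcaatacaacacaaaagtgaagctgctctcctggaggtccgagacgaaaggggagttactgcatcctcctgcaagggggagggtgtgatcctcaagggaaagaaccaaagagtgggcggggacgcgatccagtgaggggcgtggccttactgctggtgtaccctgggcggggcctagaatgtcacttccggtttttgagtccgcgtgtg
Polr2h: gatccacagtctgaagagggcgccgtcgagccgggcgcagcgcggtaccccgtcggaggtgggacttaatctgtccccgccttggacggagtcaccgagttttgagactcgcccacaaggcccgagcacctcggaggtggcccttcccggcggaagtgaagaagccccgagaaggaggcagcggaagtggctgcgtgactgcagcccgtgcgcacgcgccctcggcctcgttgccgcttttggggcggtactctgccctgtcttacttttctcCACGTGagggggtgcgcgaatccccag
Polr3e: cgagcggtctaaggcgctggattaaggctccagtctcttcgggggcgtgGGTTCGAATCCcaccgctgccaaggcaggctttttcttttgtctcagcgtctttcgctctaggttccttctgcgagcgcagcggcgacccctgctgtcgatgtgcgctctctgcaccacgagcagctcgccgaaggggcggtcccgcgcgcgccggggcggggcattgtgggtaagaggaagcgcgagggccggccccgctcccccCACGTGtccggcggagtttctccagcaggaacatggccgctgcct
The windows lie at chr6:71908803-71909102 for Polr1a, chr4:45018359-45018658 for Polr1e, chr16:20717576-20717875 for Polr2h and chr7:120917528-120917827 for Polr3e, all on the plus strand.

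CACGTG begins 24 bases after the start in the first of 2 Polr2h windows and 6 bases after the start in the Polr3e window, and these letters are not in the Polr1a and Polr1e windows. Of the members, 56 had a window in the RefSeq table and 14 of these held CACGTG, or 25%. It was in 6 of 19 members that rose with MCC (31.6%), in 0 of 5 that fell and in 5 of 21 that were not called (23.8%). Over all genes tested it was in 798 of 6779, or 11.8%, and over all genes of the table in 8.09%. The counts are small and describe letters, not binding.

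The other capitals in the Polr3e window, GGTTCGAATCC, match a form of the B box that TFIIIC reads inside transfer RNA genes, in which the A and T before the last CC may be any base. RefSeq places a transfer RNA gene, n-TLaag4, over 71 bases of this window. Searched on either strand, the motif was in 40 of 32851 windows of the table (0.122%) and in 1 member window. That is this one, where it lies on the gene's strand. It was searched for after the sequence had been read. The arrays do not measure transfer RNA.

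Among 3 tested polymerase I factors, 1 fell and 2 rose, where 28.8% of all genes tested fell and 26.2% rose. Taf1c, a subunit of the promoter selectivity factor SL1, had 6.64 and 6.72 with MCC, 7.56 and 7.56 with gp250 and 7.70 and 7.58 with Hb, so the MCC arrays were the lowest. It was 1.95-fold lower than with Hb (-0.97 ± 0.09, adjusted p of 0.000262). Taf1d, another SL1 subunit, had 9.07 and 9.33 with MCC, 8.62 and 8.93 with gp250 and 8.86 and 8.68 with Hb, a rise of 0.43 ± 0.15 with an adjusted p of 0.0471. That call was lost when MCC replicate 2 (0.30), Hb replicate 1 (0.52) or Hb replicate 2 (0.35) was left out. It was also lost with the authors' processed table (adjusted p of 0.0763), without background correction (0.0595), without the filter (0.0818) and with the replicate block (0.0553), while a dimmer Taf1d probe rose by 0.85. Taf1d overlaps Cep295 in RefSeq. Ubtf, the architectural factor of ribosomal RNA genes, had 10.83 and 10.99 with MCC, 10.30 and 10.38 with gp250 and 10.42 and 10.51 with Hb. It rose by 0.44 ± 0.10 (adjusted p of 0.0108), and this call was lost without MCC replicate 2 (0.36) and without Hb replicate 1 (0.39).

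Tbp had 9.44 and 9.37 with MCC, 9.11 and 9.08 with gp250 and 9.40 and 9.06 with Hb. The MCC and Hb arrays overlapped, and the difference of 0.17 had an interval of -0.14 to 0.49. The TBP-associated factors (TAFs) that complete TFIID gave 3 rises and no fall among 9 tested genes, a share of 33.3% that rose where 26.2% of all genes tested did. Taf10, a histone-fold subunit of TFIID and of the coactivator SAGA, had 11.86 and 11.74 with MCC, 11.05 and 10.92 with gp250 and 10.95 and 11.10 with Hb, a 1.71-fold rise. Taf9 and Taf12, which are also found in both complexes, rose by 0.48 and 0.43. The Taf12 call was lost without MCC replicate 1 (0.31) and without Hb replicate 1 (0.40), and 2 other Taf12 probes were not called. Taf9 overlaps Ak6 in RefSeq and its second probe rose by 1.15. The rest, Taf3, Taf5, Taf6, Taf9b, Taf11 and Taf13, differed by -0.26 to 0.15 and were not called. Taf5l, which takes the place of Taf5 in SAGA, rose by 0.32 (adjusted p of 0.0362). Its call was lost when any 1 of the arrays other than MCC replicate 2 was left out, with differences between 0.22 (without MCC replicate 1) and 0.36 (without Hb replicate 1). Taf15, an RNA-binding protein of the FET family, differed by -0.10 and was not called.

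All 4 genes of TFIIE and TFIIF, which join polymerase II at the promoter, rose, where 26.2% of all genes tested rose. Gtf2e2, the beta subunit of TFIIE, had 10.96 and 10.97 with MCC, 10.05 and 10.03 with gp250 and 10.09 and 9.98 with Hb, a 1.91-fold rise with an adjusted p of 0.000248. Its other probe differed by 0.29 and was not called. The alpha subunit gene Gtf2e1 rose by 0.89, with 10.42 and 10.35 with MCC, 9.73 and 9.60 with gp250 and 9.47 and 9.52 with Hb. Gtf2f2 and Gtf2f1, the subunits of TFIIF, rose by 0.89 and 0.60. In each of these 4 genes both MCC arrays were above the other 4. Over all genes tested, the MCC arrays did not overlap the Hb arrays for 78.4% and the gp250 arrays for 79.1%. Gtf2a1 of TFIIA differed by 0.22 and was not called.

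TFIIH, the helicase and kinase complex that opens promoters and repairs DNA, held the member with the largest difference of all 53. Gtf2h4, the core subunit that anchors and stimulates the XPB helicase, had 11.64 and 11.80 with MCC, 14.55 and 14.53 with gp250 and 14.50 and 14.35 with Hb. It was 6.51-fold lower with MCC than with Hb (-2.70 ± 0.10, adjusted p of 7.13e-06), by the only tested probe. The other tested members of TFIIH were not called. Gtf2h1 differed by 0.06 with an interval of -0.14 to 0.27 and Gtf2h3 by 0.21. Gtf2h5 was below background on both Hb arrays and on 1 array of each other ligand. Of the TFIIH genes outside the symbol rule, Ercc3, the XPB helicase, and Mnat1, of the kinase module, differed by 0.22 and 0.05 and were not called. Ercc2 and Cdk7 did not pass the filter, and Gtf2h2 has no named probe. Gtf2ird1 belongs to the TFII-I family, whose members are sequence-specific regulators rather than parts of the initiation complex. It had 8.43 and 8.24 with MCC, 9.60 and 9.32 with gp250 and 9.49 and 9.49 with Hb, a 2.22-fold fall by its brightest probe. All 3 of its probes fell, by 0.55 to 1.15 on the log2 scale. Gtf2ird2 differed by -0.28 and was not called.

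Among the factors of polymerase III, 1 rose and 2 fell. Of 7 tested genes of TFIIIA and TFIIIC 1 rose and 1 fell, and of 2 of TFIIIB 1 fell. Over all genes tested, 26.2% rose and 28.8% fell. Gtf3c6, the smallest subunit of TFIIIC, had 8.08 and 8.21 with MCC, 7.18 and 7.24 with gp250 and 7.04 and 7.12 with Hb, a 2.10-fold rise by its brightest probe. Of 3 Gtf3c6 probes 2 rose and 1 differed by -0.09 and was not called. Gtf3c2, of the part of TFIIIC that binds the B box, fell by 0.29 with an adjusted p of 0.0313. This call was lost without either MCC array (-0.25 without replicate 1 and -0.33 without replicate 2) and without either Hb array (-0.30 without replicate 1 and -0.28 without replicate 2), and the sign turned without scaling between arrays (0.037). Gtf3a, which is TFIIIA, and 4 other TFIIIC genes differed by -0.23 to 0.22 and were not called, although a second Gtf3c5 probe fell by 0.61. Brf1 is the TFIIIB subunit used at transfer RNA and 5S genes. It had 10.13 and 10.07 with MCC, 10.71 and 10.62 with gp250 and 10.63 and 10.58 with Hb. Its fall of 0.50 (adjusted p of 0.00369) became -0.18 without scaling between arrays and was then not called. Brf2, its relative at U6-type promoters, differed by -0.10, and the MCC and Hb arrays overlapped.

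**Figure D3:**
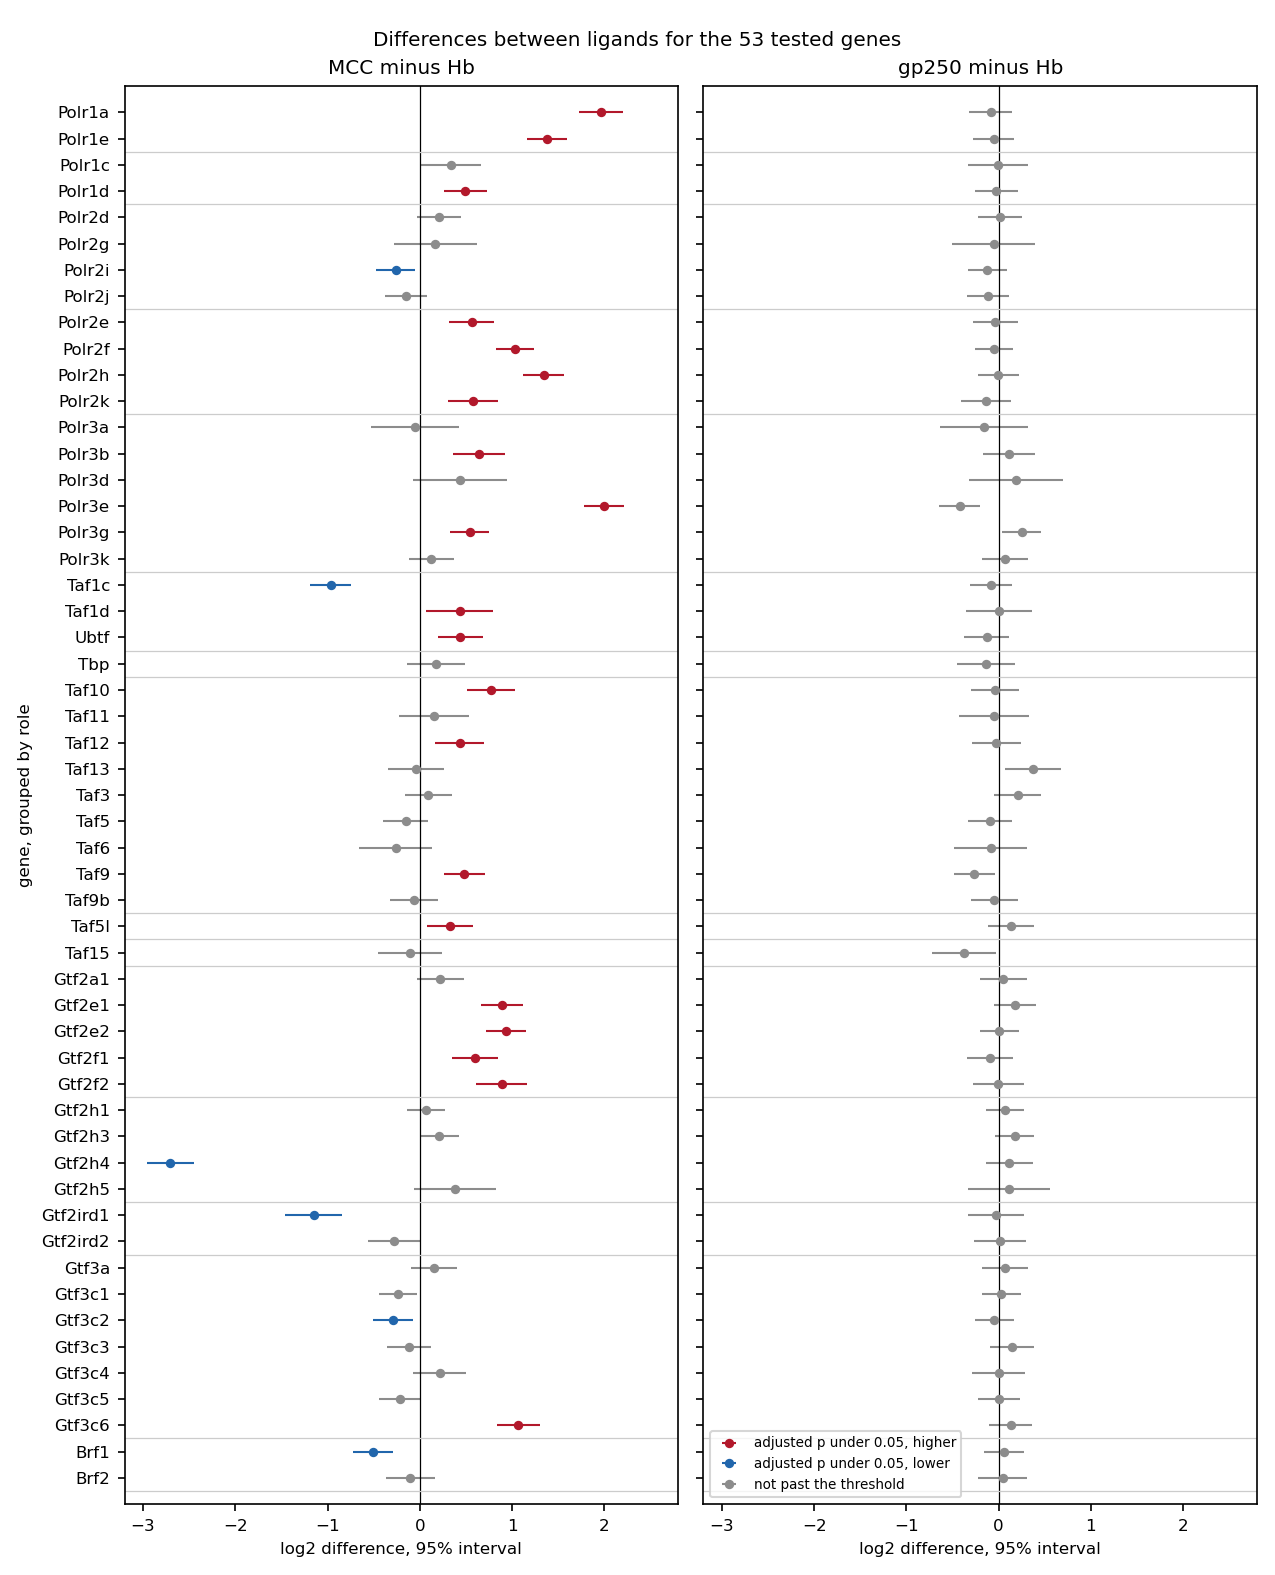
Log2 difference of every tested member with its 95% interval, ordered by role, for MCC minus Hb (left) and gp250 minus Hb (right). Red marks members that rose, blue members that fell and grey members not called. With MCC the values run from -2.70 (Gtf2h4) to 1.99 (Polr3e), while every gp250 against Hb interval lies between -0.73 and 0.69.

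Where a member has a close relative, both genes were tested in 4 pairs, each gene with its own test and no test between the genes. Taf9 rose by 0.48 and Taf9b differed by -0.06. Brf1 fell and Brf2 was not called. Taf5l rose by 0.32 and Taf5 differed by -0.15. Gtf2ird1 fell and Gtf2ird2 was not called, a pair that was not among those listed in advance. Of 17 members with more than 1 tested probe, all probes of 6 were called in the same direction, some probes of 4 were called and others not, and no gene had probes called in opposite directions.

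**Figure D4:**
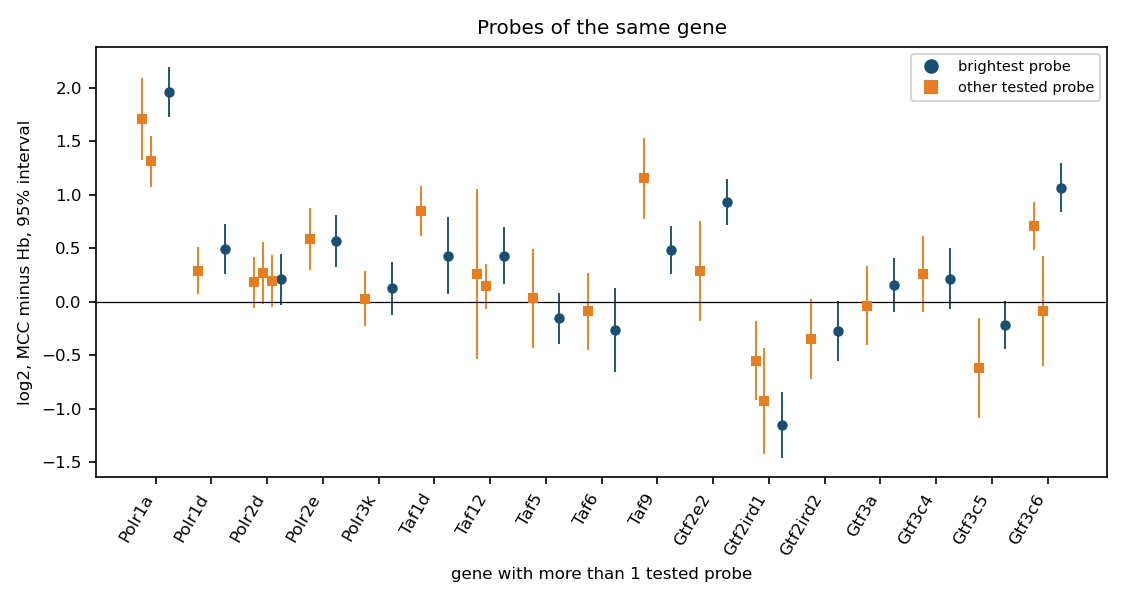
Log2 difference between MCC and Hb with 95% intervals for each tested probe of the 17 members read by more than 1 probe, with the brightest probe as a blue circle and the others as orange squares. The 3 Polr1a probes lie between 1.31 and 1.96, whereas the Gtf3c6 probes run from -0.09 to 1.07.

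Other genes of the same machinery, left out by the symbol rule, were followed as a list of 41, of which 33 were tested. In MCC against Hb 9 rose (27.3%, near the 26.2% of all genes tested) and 6 fell (18.2%, with 28.8% of all genes tested), and the median was 0.19. Besides Cd3eap, the largest rise was that of Gpn1, a GTPase needed to bring polymerase II into the nucleus, which had 10.11 and 10.01 with MCC, 8.84 and 8.81 with gp250 and 8.99 and 8.90 with Hb, a 2.16-fold rise. Its relative Gpn2 rose by 0.82. Snapc4, the largest subunit of the complex that starts small nuclear RNA genes, rose by 0.84. Maf1, the repressor of polymerase III, averaged 13.14 ± 0.20 with MCC, 13.99 ± 0.01 with gp250 and 13.89 ± 0.02 with Hb (log2 signal, SD over the 2 arrays), and was 1.69-fold lower with MCC than with Hb. Hexim1, the inhibitor of the elongation kinase P-TEFb, was 1.85-fold lower with MCC than with Hb (-0.89 ± 0.10). Elongation genes went both ways: Nelfe, of the pausing factor NELF, rose by 0.74, its partners Nelfa, Nelfb and Nelfcd were not called, and Cdk9, the kinase of P-TEFb, fell by 0.45, Ell by 0.50 and Supt5 by 0.29, while Supt6 rose by 0.41.

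Against gp250 the same MCC arrays gave 20 rises and 6 falls among the 53 members, with 26.3% of all genes tested rising and 29.6% falling (55.9% called in either direction). At least 2-fold rises numbered 5 members and 8.81% of all genes tested. Without scaling between arrays 34 members rose and 3 fell. The share over all genes in that setting is not given for this comparison. Against Hb, 39.0% of all genes tested then rose, so these counts cannot be set beside the scaled shares. The arrays did not overlap for 41 members, where the share over all genes tested was 79.1%. The median member difference was 0.22, against -0.04 for all genes. Both comparisons use the same MCC arrays. Polr3e differed by 2.42 from gp250 and 1.99 from Hb, Polr1a by 2.05 and 1.96, and Gtf2h4 by -2.82 and -2.70. Class medians against gp250 were 0.98 for polymerase I and I/III subunits, 0.90 for the common subunits, 0.27 for polymerase III and 0.08 for polymerase II. These medians also hold for the members chosen by symbol only. Of the polymerase I subunits under older names, Cd3eap differed from gp250 by 1.51, Twistnb by 0.22 and Znrd1 by -0.01. Crcp of polymerase III differed by 0.34. Calls that passed in 1 of these comparisons only were Polr2i, Taf5l and Gtf3c2 against Hb, and Taf13 (-0.41) and Gtf3c1 (-0.26) against gp250. Whether the differences differ from each other was not tested. The Taf13 call was lost when either MCC array or either gp250 array was left out, with differences between -0.48 (without gp250 replicate 1) and -0.33 (without MCC replicate 1). The Gtf3c1 call was lost whichever of the 6 arrays was left out, with differences between -0.31 (without MCC replicate 2) and -0.23 (without MCC replicate 1), and its sign turned without scaling between arrays (0.073). The Polr3g rise of 0.29 over gp250 was not called without either MCC or either gp250 array (0.27 to 0.31). The Taf12 rise of 0.46 was not called without MCC replicate 1 (0.33) or gp250 replicate 2 (0.44), and the Taf1d rise of 0.43 was not called without MCC replicate 2 (0.29), gp250 replicate 1 (0.28) or either Hb array (0.43).

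Between gp250 and Hb no member was called by limma, and 0% of all genes tested were called. The smallest adjusted p of a member was 0.716. An unadjusted p below 0.05 was found for 5 of 53 members and 6.22% of all genes tested. The arrays did not overlap for 24 members, where the share over all genes was 35.1%. Polr3e was lower with gp250 by 0.42 on the log2 scale, Taf13 was higher by 0.37 and Taf9 lower by 0.26, and none of these passed the adjusted threshold. No 95% interval of the 53 members reached a 2-fold change, and their limits ran from -0.73 to 0.69 on the log2 scale. For the polymerase classes the medians were -0.04 for polymerase I and I/III subunits, -0.05 for the common subunits, -0.09 for polymerase II and 0.09 for polymerase III.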

How the data were processed

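The authors deposited a non-normalized intensity per probe, per the file headers, beside its detection p-value. Values below 0 show that some background was taken off before deposit, and no source used here names the scanner software. The deposited processed table is the same intensity scaled by 1 factor per array, and served as an alternative. Per the labels, RNA was isolated with a Qiagen kit. Groups came from the sample titles.

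Intensities were corrected by normexp from the detection p-values with an offset of 16 and quantile-normalized on a log2 scale (neqc, limma 3.58.1 in R 4.3.3). The offset shrinks differences of dim probes. Tested probes had a detection p below 0.05 on 2 or more of the 6 arrays, and a gene is shown by its brightest tested probe. All 6 arrays entered 1 linear model with a mean for each ligand (3 residual degrees of freedom) and eBayes, and p was adjusted by Benjamini-Hochberg over all probes tested within each comparison. An adjusted p under 0.05 was called. Errors are standard errors, and intervals are 95% intervals from the model. The number of arrays limits the precision.

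Named were the up to 4 called members with the largest change in each role class, a fixed set of central genes and paralog pairs, and the up to 6 such companions. Other members are given for completeness. The members, lists and tests were chosen with earlier results of these data known. Names matched the RefSeq gene table by Entrez number for 65 of 65 members, and 18 overlap another protein-coding gene there. Among members called against Hb these are Polr1e, Polr2i, Polr2k, Taf1c, Taf1d, Taf9, Taf10, Gtf2e2, Gtf2f2 and Brf1. Promoters came from the RefSeq table of GRCm38.p6, and the files give no coordinates of their own. Alternatives changed background correction, offset, scaling, source table, filter, probe choice, spread, arrays in the fit and the replicate block, and left out each array.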

Additional observations from a re-analysis of the deposited data

How the results depend on the processing

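Of the 27 members called in MCC against Hb, 20 were called under every alternative in which they were tested and 25 kept their direction in those. Polr3e was not tested when detection on all 6 arrays was required, which left 2 polymerase III rises in place of 3. The scaling between arrays moved the counts most. Without it, 33 members rose and 3 fell against Hb, where 39.0% of all genes tested rose. Against gp250, 34 rose and 3 fell, and the share over all genes there is not given. With a common median 26 rose and 4 fell against Hb. Of all 8253 genes tested, 2596 then rose (31.5%) and 1831 fell. Without scaling the sign turned for 12 of 53 members against Hb, of which Polr2i (0.034) and Gtf3c2 (0.037) had been called. It also turned for 12 against gp250, of which Gtf3c1 (0.073) had been called and Taf9b (0.32) was called only without scaling. The count of polymerase II subunits that rose was 1 with a common median, without scaling and with a trended, robust spread, in place of 0. The count that fell, 1 in the report, was 0 with a common median, without scaling, without the filter, in the fit of the 4 arrays compared and with the replicate block, and 0 to 0 when each array was left out. Without scaling 5 polymerase III subunits rose. The causes were not tested.

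No replicate pattern shared between ligands was seen: differences between replicates 1 and 2 correlated at 0.02, -0.00 and -0.02 between ligands. These values cannot tell whether arrays of the same number came from the same mice or culture. With the replicate block 24 members were called against Hb (20 up and 4 down), 24 against gp250 and 0 between gp250 and Hb. Against Hb, 2100 of all 8253 genes tested then rose (25.4%) and 2281 fell. With 2 arrays a ligand, small changes of dim members such as Polr3d could not be resolved.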
